A study of Mus musculus with 12 samples.

Results

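Retinol dehydrogenases and the genes that carry retinol or handle its products were followed in the livers of mice labelled as wild type (WT) or as lacking HuR, the RNA-binding protein encoded by *Elavl1*, in hepatocytes (HuRHep-/-). The set comprised 9 genes, chosen by name from the 20093 genes listed in both deposited count tables, with the level of *Rdh16f1* on chow already in view. The members were *Rdh16f1*, *Rdh16f2*, *Rdh16*, *Rdh7*, *Rdh9*, *Rdh11*, *Dhrs3*, *Aldh1a1* and *Rbp4*. The tables name *Rdh16f1* as Gm28046 (ENSMUSG00000099009) and *Rdh16f2* as BC089597 (ENSMUSG00000074639), and both were matched by identifier. Since the chow livers had been used to choose the members, their chow and diet differences are given as a description, with no test. Only the genotype difference on the high fat diet was tested for them.

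Bulk RNA-seq was measured in 12 livers, 3 in each of 4 groups. Per the labels, all 12 mice were C57BL/6N males of 4 to 6 months that carried the floxed *Elavl1* allele on both chromosomes (HuR flox/flox). Mice labelled HuRHep-/- had received AAV8-Tbg-Cre, in which the thyroxine-binding globulin promoter drives Cre in hepatocytes, and mice labelled WT had received AAV8-Tbg-null, so virus was given to every group. Mice ate either normal chow or, for 16 weeks, a high fat, cholesterol and fructose diet (HFCF) with 40 kcal% fat, 2% cholesterol and 20 kcal% fructose. The paper that used the chow livers describes a cross with albumin-Cre mice and younger animals instead, and the sources at hand do not settle which is right. Each diet has its own count table, so diet cannot be told apart from any difference in handling between the tables.

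Retinol is stored in liver as retinyl ester in stellate cells, and hepatocytes load it onto retinol-binding protein 4 (*Rbp4*) for export to plasma. Inside cells, short-chain dehydrogenases such as the *Rdh16* family, *Rdh7* and *Rdh9* oxidize retinol to retinaldehyde, and several of these enzymes also act on hydroxysteroids. *Rdh11* and *Dhrs3* work mainly in the other direction, reducing retinaldehyde to retinol. *Aldh1a1* oxidizes retinaldehyde to retinoic acid, the ligand of the nuclear receptors RAR. In mouse, *Rdh1*, *Rdh16f1*, *Rdh9*, *Rdh16*, *Rdh16f2* and *Rdh7* lie in 1 cluster on chromosome 10, with *Rdh19* between *Rdh16* and *Rdh16f2*.

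Total counts ran from 30071731 to 35949203 per liver, and levels are given in CPM, each count relative to its library's total after scaling by the trimmed mean of M-values. Over all 12 livers, hepatocyte markers summed to between 54080 and 104199 CPM, with none of the 7 listed markers at 0. *Elavl1*, the gene the labels give as deleted, went against them. Its level was 30.9, 29.3 and 30.99 CPM in the chow livers labelled WT and 42.8, 39.2 and 38.8 CPM in those labelled HuRHep-/-. On HFCF the 3 WT livers stood at 23.9, 24.1 and 27.0 CPM, below the 32.4, 32.2 and 34.2 CPM of those labelled HuRHep-/-. The log2 fold change was 0.41 (SE 0.07, adjusted p = 0.0219, limma) on chow and 0.38 (SE 0.07, adjusted p = 0.0327) on HFCF. The sign held without any 1 liver, but the test was no longer passed on chow without WT replicate 1 or 3 or HuRHep-/- replicate 1 or 2 (adjusted p up to 0.105), nor on HFCF without any liver but WT replicate 3 (up to 0.121). The tables sum reads over the whole gene, and the sources used here do not say which exon is floxed, so these counts do not show whether the deletion occurred. Every genotype difference below is between livers by their labels. Replicates are separate mice by their titles only, so p-values measure the spread between these samples.

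*Rdh16f1* is annotated in GENCODE M21 (GRCm38) on the plus strand at chr10:127759787-127792694, as 1 transcript of 4 exons. Its exon 1, of 464 bases, lies within exon 1 of *Rdh1*, and its exons 2 to 4, of 2302 bases, lie within exons 2 to 4 of *Rdh9*. All 2766 of its exon bases thus belong to another gene on the same strand, 16.8% to *Rdh1* and 83.2% to *Rdh9*. The transcript is a read-through from *Rdh1* into *Rdh9* across an intron of 28357 bases. No base of the exons is its own, and only the join of exon 1 to exon 2 sets it apart. The stretch around that join is shown for the 3 genes because, in this annotation, it is where a read can match *Rdh16f1* and neither neighbour. The labels give RefSeq gene models for the counting, and whether those match this annotation is not given in the sources used here. The capitals mark the nearest base on each side at which *Rdh16f1* differs from *Rdh9* (before the join) or from *Rdh1* (after it), and the sequences are 5′ to 3′ from the GENCODE transcripts.

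Rdh1: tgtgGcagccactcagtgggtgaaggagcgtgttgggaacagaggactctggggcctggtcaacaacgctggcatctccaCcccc

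Rdh16f1: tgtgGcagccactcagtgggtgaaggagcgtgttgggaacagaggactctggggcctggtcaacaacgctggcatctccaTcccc

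Rdh9: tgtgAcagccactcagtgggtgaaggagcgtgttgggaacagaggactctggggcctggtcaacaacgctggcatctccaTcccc

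The first 44 bases of each stretch are the end of exon 1 and the last 41 the start of exon 2. In *Rdh16f1* they are at chr10:127760207-127760250 and chr10:127788608-127788648. From *Rdh16f1* to *Rdh9* the nearest change is G425A, 40 bases before the join, and from *Rdh16f1* to *Rdh1* it is T501C, 37 bases after it, with positions counted from the 5′ end of the *Rdh16f1* transcript. A read must therefore cover 77 bases across the join to match *Rdh16f1* and neither neighbour. Of the 2692 stretches of 75 bases in the *Rdh16f1* transcript 0 are absent from both neighbours, and of the 2617 stretches of 150 bases 74 are (2.83%). The read length is not given in the sources used here. Apart from such reads, or read pairs that hold both bases, counts of *Rdh16f1* cannot be told apart from those of its neighbours.

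**Figure D1:**
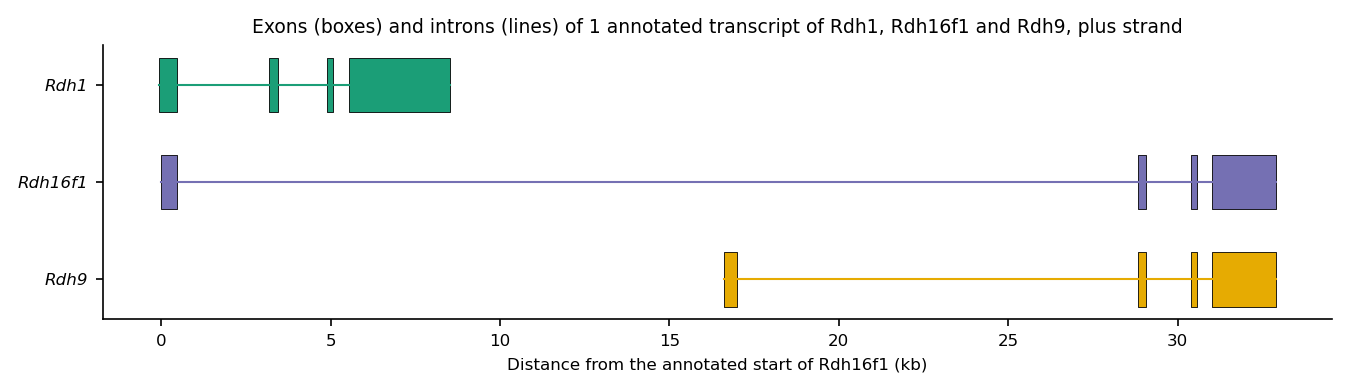
Exons as boxes and introns as lines for 1 annotated transcript each of Rdh1, Rdh16f1 and Rdh9, with distance from the start of Rdh16f1 in kb on the x axis. The exon 1 of Rdh16f1 stands under that of Rdh1, and its other 3 exons stand over those of Rdh9.

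*Rdh16f1* was counted in few livers. In the chow livers labelled WT it had 138, 45 and 101 counts, and in the chow livers labelled HuRHep-/- it had 0, 0 and 1. On HFCF it had 0 in all 3 WT livers, and the livers labelled HuRHep-/- had 0, 0 and 51. Counts above 1 were thus found in all 3 chow livers labelled WT and in 1 other liver, the HFCF liver labelled HuRHep-/- replicate 3. Scaled by library size, the summed counts on chow were 310 times higher in livers labelled WT, with a 95% counting interval of 55.2 to 12299 that rests on the single count in the other group. They were at least 106-fold higher in chow than in HFCF livers labelled WT, taking 3 counts over the group as the floor for a count of 0. These intervals and floors cover counting error only. This is the contrast the gene was chosen on, so it is given without a test.

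*Rdh9* (chr10:127776386-127792697, plus strand), a retinol and hydroxysteroid dehydrogenase, held most of the counts of itself, *Rdh1* and *Rdh16f1*. How reads from shared exons were assigned is not known. Of the counts in *Rdh1*, *Rdh16f1* and *Rdh9* together, *Rdh16f1* held 7.30% (Wilson 95% interval 6.21 to 8.56), 3.03% (2.28 to 4.04) and 4.84% (4.00 to 5.85) in the chow livers labelled WT. It held 1.95% (1.49 to 2.56) in the HFCF liver labelled HuRHep-/- replicate 3. In the liver with 1 count the share was 0.0609% (0.0107 to 0.344), and in the 7 livers with no count it could reach at most between 0.0767% and 0.269%. *Rdh1* had between 2 and 13 counts in any liver.

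The level of the read-through and its neighbours together moved less than *Rdh16f1* alone. *Rdh9* was at 57.6, 47.8 and 64.4 CPM in chow livers labelled WT and at 34.2, 34.5 and 50.3 CPM in those labelled HuRHep-/-. Their ranges overlapped, and the log2 fold change of the livers labelled HuRHep-/- over WT was -0.52 (SE 0.17). With the 3 rows summed, the levels were 62.2, 49.6 and 68.1 against 34.4, 34.6 and 50.6 CPM, which also overlapped, and the log2 fold change was -0.60 (SE 0.17). Over the 3 chow livers of each group, *Rdh9* had 5151 counts in those labelled WT and 3928 in those labelled HuRHep-/-, and *Rdh16f1* had 284 and 1.

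**Figure D2:**
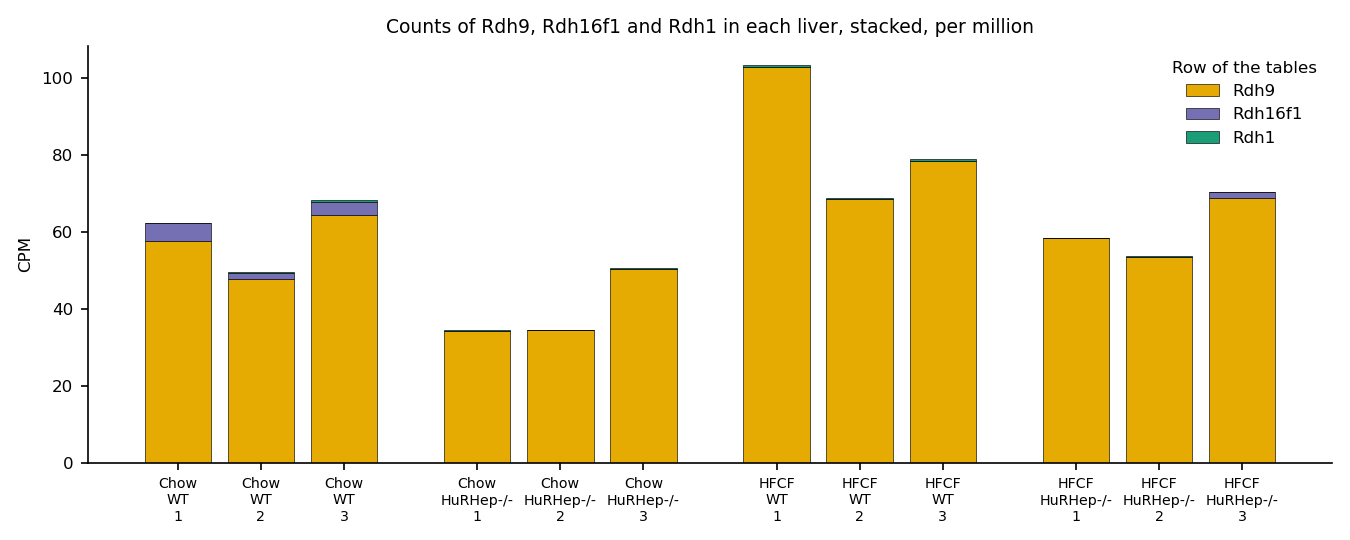
Stacked bars of the counts of Rdh9, Rdh16f1 and Rdh1 in each of the 12 livers, in CPM on the y axis, by group and replicate on the x axis. Rdh16f1 is a thin band on top of Rdh9 in the 3 chow livers labelled WT and in 1 HFCF liver labelled HuRHep-/-, and Rdh1 is barely visible in any.

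The other genes of the cluster also share sequence, so a part of their counts depends on how reads with several matches were assigned. Coding sequences of *Rdh1*, *Rdh16f1*, *Rdh9*, *Rdh16*, *Rdh16f2* and *Rdh7* were between 84.4% and 98.7% identical in pairs, with *Rdh9* and *Rdh16* at 96.3%. Of the 31-base stretches of each transcript, 94.4% occurred in another gene of the cluster for *Rdh9*, 24.2% for *Rdh16f2*, 23.2% for *Rdh16* and 20.6% for *Rdh7*. For *Rdh9* the share dropped to 31.3% when *Rdh16f1* was left out. *Rdh11* (chromosome 12), *Dhrs3* (chromosome 4), *Aldh1a1* and *Rbp4* (both chromosome 19) shared 0% of their exon bases with annotated genes on their strand, and *Rdh16* shared 6.13% with the pseudogene *Rdh18-ps*.

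Exon lengths here cover all exon bases in any annotated transcript of a gene. Per kilobase of exon, mean levels over the 12 livers were 2350 CPM for *Rbp4*, 634 for *Rdh7* and 217 for *Aldh1a1*. *Rdh16f2* followed at 56.6, *Dhrs3* at 43.4, *Rdh16* at 19.3, *Rdh9* at 16.7 and *Rdh11* at 7.87 CPM per kilobase. *Rdh16f1* came last at 0.324. Within the cluster *Rdh7* was thus the most abundant dehydrogenase per length. Over livers, *Dhrs3* spanned 37.4 to 51.4 CPM per kilobase, above the 10.9 to 27.1 of *Rdh16* and the 9.53 to 28.7 of *Rdh9*, which overlapped each other. *Rdh16f2* spanned 17.8 to 111 and overlapped all 3, and both *Rdh16* and *Rdh9* overlapped *Rdh11*, at 3.57 to 13.6. The place of *Rdh16f2* differed between diets. On chow livers labelled WT, *Rdh16f2* stood at 97.6 ± 17.0 (SD, n = 3) and *Rdh16* at 16.6 ± 3.92 CPM per kilobase. On HFCF livers labelled WT they stood at 25.1 ± 6.66 and 23.2 ± 4.88, a difference smaller than the spread. Places per kilobase depend on the length used. That of *Rdh16* is 6217 bases over 3 transcripts, while its transcript read for shared sequence has 3207 bases. Levels on the shorter length would be higher and were not computed.

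**Figure D3:**
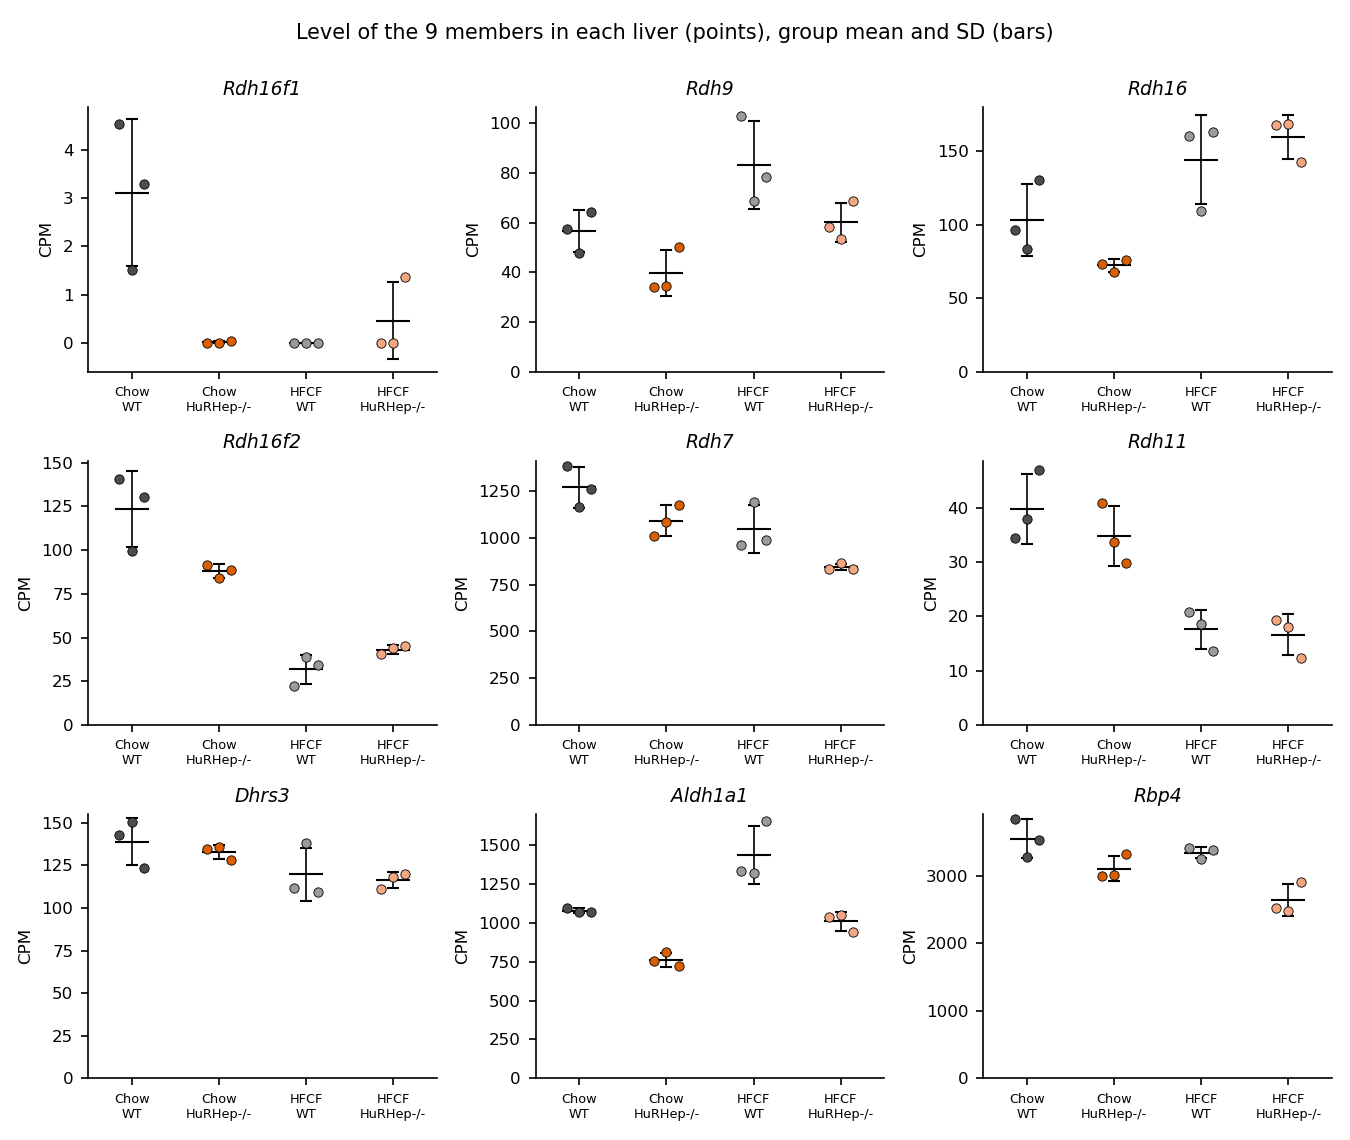
Level in CPM on the y axis of each of the 9 members in each of the 12 livers (points), with the mean and SD of the 3 livers of each group (bars) on the x axis. Rdh16f2 and Rdh11 are lower in all 6 HFCF livers than in all 6 chow livers, and Aldh1a1 is lower in livers labelled HuRHep-/- than WT on either diet.

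On chow, the estimates of all 9 members were lower in livers labelled HuRHep-/- than in livers labelled WT, though that of *Dhrs3* turned to 0.01 without the chow WT replicate 2 liver. The groups did not overlap for 4 of the 9, namely *Rdh16f1*, *Rdh16f2*, *Rdh16* and *Aldh1a1*. Among all genes tested on chow, 29.5% did not overlap. All 9 members passed the filter on low counts, *Rdh16f1* only through the group in which it was high. These counts used the contrast the members were chosen on and describe it only. Cell markers moved with the labelled genotype on chow as well. Hepatocyte markers summed to between 85276 and 104199 CPM in WT livers and between 69362 and 76831 CPM in livers labelled HuRHep-/-, and macrophage markers to between 224 and 292 and between 295 and 440 CPM, in both cases without overlap. Most of the hepatocyte sum was *Alb* (albumin), at a mean of 74058 CPM in WT livers and 52647 CPM in livers labelled HuRHep-/-. Of the 7 hepatocyte markers 6 had lower estimates, 3 did not overlap and 0 were called. All 13 macrophage markers had higher estimates and 0 were called, no marker of either list was at 0 in these groups, and their part in the members' values was not tested.

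*Aldh1a1* (chr19:20492715-20643465), the enzyme that makes retinoic acid, was at 1093, 1070 and 1070 CPM in the chow livers labelled WT. In those labelled HuRHep-/- it was at 755, 809 and 722 CPM, a log2 fold change of -0.50 (SE 0.07). All 3 of these livers were lower than every liver labelled WT.

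*Rdh16* (chr10:127801152-127846565) was at 96.2, 83.3 and 130 CPM in livers labelled WT and at 73.3, 67.6 and 76.2 CPM in livers labelled HuRHep-/-, a log2 fold change of -0.48 (SE 0.15) that was -0.30 without chow WT replicate 3. *Rdh16f2* (chr10:127866474-127877317) was at 141, 99.3 and 131 against 91.7, 84.0 and 88.8 CPM, a log2 fold change of -0.47 (SE 0.12). Both genes, like *Aldh1a1*, had no overlap between the groups. *Rdh9*, given above, differed by -0.52 with overlap. The remaining members differed by less: *Rdh7* by -0.21 (SE 0.10), *Rdh11* by -0.19 (SE 0.15, from -0.31 without HuRHep-/- replicate 1 to -0.063 without WT replicate 3), *Rbp4* by -0.19 (SE 0.11) and *Dhrs3* by -0.05 (SE 0.08) on the log2 scale, and each overlapped.

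On HFCF the members were tested between livers labelled HuRHep-/- and WT, in the limma fit on all 14295 genes that passed the filter. To be called, a gene had to reach an adjusted p of 0.05 or less together with a 1.5-fold change, and to have 10 or more counts in each group's sum. No member met it (0 of the 8 that passed the filter), against 517 of all genes (3.62%). Without the fold limit 1 of the 8 passed, *Aldh1a1*, against 6.79% of all genes. At an unadjusted p under 0.05 there were 5 of 8, against 29.5% of all genes. The groups did not overlap for 5 of 8, against 36.8% of all genes. *Rdh16f1*, at 0 in 5 of these 6 livers, did not pass the filter.

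*Aldh1a1* fell with the labelled genotype on HFCF. Its levels were 1334, 1321 and 1651 CPM in livers labelled WT and 1034, 1051 and 941 CPM in livers labelled HuRHep-/-, without overlap. The log2 fold change was -0.52 (SE 0.11, adjusted p = 0.0418), a fold of 1.43 that stays under the fold limit. With replicate number as a block, the adjusted p was 0.0571, past the limit of 0.05. The titles number the HFCF livers and do not say that they were paired. The limit was also missed under upper-quartile scaling (adjusted p = 0.0600) and without any of 5 of the 6 livers, all but HFCF WT replicate 2, where adjusted p ran from 0.0520 to 0.149. Over all 14 alternatives the adjusted p of *Aldh1a1* ran from 0.00891 to 0.149, and its sign did not change.

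*Rbp4* (chr19:38116629-38125281, minus strand), the plasma carrier, was at 3408, 3241 and 3371 CPM in livers labelled WT and at 2524, 2469 and 2910 CPM in livers labelled HuRHep-/-. The groups did not overlap, with a log2 fold change of -0.36 (SE 0.11, adjusted p = 0.0881). *Rdh7* (chr10:127884028-127888817, minus strand) was at 962, 1193 and 989 against 835, 864 and 836 CPM, also without overlap, a log2 fold change of -0.32 (SE 0.10, adjusted p = 0.0923). Neither passed the test. Hepatocyte markers also separated on HFCF, at sums of 60122 to 65644 CPM in WT livers and 54080 to 58775 CPM in livers labelled HuRHep-/-, with 6 of 7 estimates lower, 2 without overlap and 0 called, and their part in the values of *Aldh1a1*, *Rbp4* and *Rdh7* was not tested.

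*Rdh9* was at 103, 68.6 and 78.5 CPM in livers labelled WT and at 58.3, 53.5 and 68.8 CPM in livers labelled HuRHep-/-, a log2 fold change of -0.47 (SE 0.16, adjusted p = 0.110) that was -0.30 without HFCF WT replicate 1. On the scaling of all 12 livers used for these levels the groups overlap by a narrow margin (68.6 and 68.8 CPM), and on that of the HFCF table alone they do not (74.0 and 73.4 CPM). With the counts of *Rdh16f1* and *Rdh1* added, the log2 fold change was -0.46 (SE 0.16, adjusted p = 0.120).

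*Rdh16f2* and *Rdh16* had estimates above 0 on HFCF, opposite in sign to chow, though that of *Rdh16* was -0.041 without HFCF WT replicate 2. For *Rdh16f2*, the levels were 22.5, 38.8 and 34.2 CPM in livers labelled WT and 40.3, 43.8 and 45.3 CPM in livers labelled HuRHep-/-, so all 3 of the latter were higher. The log2 fold change of 0.46 (SE 0.19) did not pass the test (adjusted p = 0.155), and it was 0.24 without HFCF WT replicate 1. *Rdh16* differed by 0.15 (SE 0.16, adjusted p = 0.569), *Rdh11* by -0.11 (SE 0.21, adjusted p = 0.772) and *Dhrs3* by -0.05 (SE 0.10, adjusted p = 0.784), and all 3 overlapped.

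**Figure D4:**
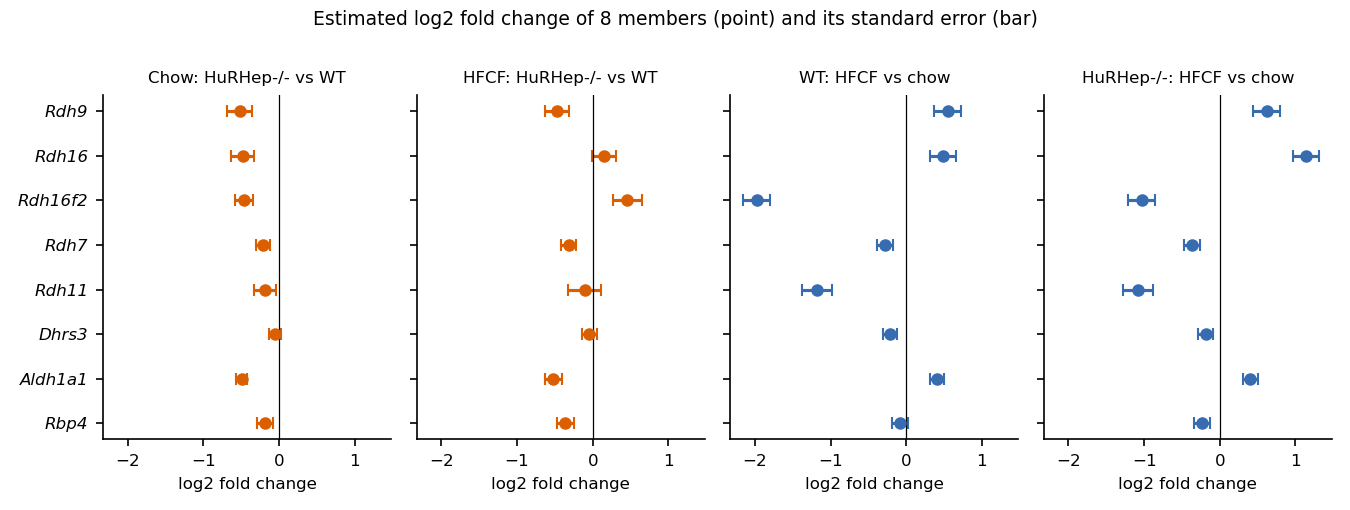
Estimated log2 fold change (points) and standard error (bars) of 8 members on the x axis, for livers labelled HuRHep-/- against WT on each diet and for HFCF against chow in each labelled genotype. Rdh16f2 and Rdh11 lie below 0 in both diet panels, Rdh9, Rdh16 and Aldh1a1 lie above 0 in both, and Rdh16f1 is not drawn because most of its counts are 0.

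Between the diets, members of the gene cluster moved in opposite directions. The diet comparisons share the chow livers the members were chosen on, so these are descriptions. *Rdh16f2* was lower on HFCF in either labelled genotype, with a log2 fold change of -1.98 (SE 0.17) in livers labelled WT and -1.03 (SE 0.17) in livers labelled HuRHep-/-. *Rdh16* was higher, by 0.48 (SE 0.17) and 1.14 (SE 0.17), and *Rdh9* was higher by 0.55 (SE 0.18) and 0.62 (SE 0.18). *Rdh7* was lower by a smaller step, at -0.28 (SE 0.10) and -0.37 (SE 0.10). In livers labelled WT *Rdh16* went from between 83.3 and 130 CPM on chow to between 109 and 163 CPM on HFCF, with overlap, and in livers labelled HuRHep-/- from between 67.6 and 76.2 to between 142 and 168 CPM, without overlap.

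Outside the cluster, *Rdh11* (chr12:79174337-79192293, minus strand), a retinaldehyde reductase, had the largest difference between diets. It was at 34.4, 38.0 and 46.9 CPM in chow livers labelled WT and at 20.7, 18.5 and 13.6 CPM on HFCF. In livers labelled HuRHep-/- it was at 40.9, 33.6 and 29.9 CPM on chow and at 19.4, 18.0 and 12.3 CPM on HFCF. Every HFCF liver was below every chow liver, with log2 fold changes of -1.18 (SE 0.20) and -1.08 (SE 0.20). *Aldh1a1* was higher on HFCF by 0.41 (SE 0.10) and 0.40 (SE 0.10). *Dhrs3* (chr4:144892827-144928209) differed by -0.22 (SE 0.09) and -0.19 (SE 0.09, and -0.11 under an alternative setting with all livers), and *Rbp4* by -0.08 (SE 0.11, from -0.14 without chow WT replicate 2 to -0.026 without chow WT replicate 1) and -0.24 (SE 0.11).

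The groups did not overlap between diets for 5 of the 9 members in livers labelled WT, against 37.6% of all 14535 genes tested, and for 8 of 9 in livers labelled HuRHep-/-, against 54.6%. *Rdh16f1* is among the 5, at 0 in all 3 HFCF livers labelled WT. Diet moved much of the transcriptome, and stellate cell markers moved with it. Their 12 genes, none at 0, summed to between 259 and 292 CPM in chow and between 296 and 473 CPM in HFCF livers labelled WT, and to between 200 and 288 and between 440 and 492 CPM in livers labelled HuRHep-/-. Of the 12, 3 were called for the WT label and 12 for HuRHep-/-, each higher on HFCF, beside 9.38% and 19.1% of all genes. Hepatocyte markers were lower on HFCF, at 85276 to 104199 against 60122 to 65644 CPM in livers labelled WT and at 69362 to 76831 against 54080 to 58775 CPM in livers labelled HuRHep-/-, with 2 of 7 called for either label. Macrophage markers were higher, at 224 to 292 against 325 to 578 CPM for the WT label (6 of 13 called) and at 295 to 440 against 552 to 781 CPM for HuRHep-/- (9 of 13 called). Cholangiocyte markers overlapped between the diets for the WT label (0 of 6 called), and for HuRHep-/- they rose from sums of 47.7 to 78.4 to sums of 134 to 244 CPM (6 of 6 called). For HuRHep-/- the endothelial sums were 152 to 177 on chow and 209 to 222 CPM on HFCF, and the lymphocyte sums 4.83 to 7.40 and 7.46 to 8.92 CPM, both without overlap and with 3 of 9 called, against 0 of 9 each for the WT label. The part of these cell types in the members' values was not tested, and in whole liver fewer cells of a type and less RNA per cell cannot be told apart.

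The promoters of *Rdh9*, *Rdh16* and *Rdh16f2* are shown because these genes of the cluster lie on 1 strand and differ in direction between the diets. Each runs from 250 bases before to 50 bases after the start, from RefSeq on GRCm38.p6, plus strand, 5′ to 3′. Capitals mark matches on either strand to the nuclear receptor half-site AGGTCA or to the STAT motif TTCNNNGAA.

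Rdh9, chr10:127776155-127776454: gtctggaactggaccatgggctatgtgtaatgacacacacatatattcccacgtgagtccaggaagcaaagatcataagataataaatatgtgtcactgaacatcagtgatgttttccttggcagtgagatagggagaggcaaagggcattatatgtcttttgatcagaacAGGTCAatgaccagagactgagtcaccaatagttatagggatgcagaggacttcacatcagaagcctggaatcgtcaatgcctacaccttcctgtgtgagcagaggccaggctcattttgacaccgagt

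Rdh16, chr10:127800903-127801202: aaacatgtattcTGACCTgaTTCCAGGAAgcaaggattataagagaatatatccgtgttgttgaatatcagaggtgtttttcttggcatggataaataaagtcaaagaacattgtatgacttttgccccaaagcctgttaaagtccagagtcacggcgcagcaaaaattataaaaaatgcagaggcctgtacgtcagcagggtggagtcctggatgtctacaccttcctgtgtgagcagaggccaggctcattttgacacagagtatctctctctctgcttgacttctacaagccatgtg

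Rdh16f2, chr10:127866226-127866525: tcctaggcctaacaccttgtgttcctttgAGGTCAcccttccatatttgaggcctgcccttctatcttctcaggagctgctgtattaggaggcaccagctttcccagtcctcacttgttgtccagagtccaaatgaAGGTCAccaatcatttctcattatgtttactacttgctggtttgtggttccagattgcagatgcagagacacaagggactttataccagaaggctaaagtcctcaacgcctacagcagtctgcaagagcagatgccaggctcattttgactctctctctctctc

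In alignment *Rdh16* and *Rdh9* were identical at 77.8% of 261 paired bases, *Rdh16* and *Rdh16f2* at 65.9% of 252, and *Rdh16f2* and *Rdh9* at 56.9% of 281. AGGTCA occurred in all 3 windows, and in 5 of the 14 promoters listed for 8 members, against 16.3% of all 32851 promoters. TTCNNNGAA occurred in that of *Rdh16* alone among the 14, against 8.30% of all. The SREBP motif TCACNCCAC occurred in 0 of the 14, including both of *Rdh11*, against 1.24% of all. The motifs TTCNNNGAA and AGGTCA do not share bases in the *Rdh16* window. A match is a description of letters and not a binding site.

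The pattern of *Rdh16f1* over the 12 livers was most like that of *Snu13* (Pearson r = 0.90), *Slc39a6* (0.89), *Pfdn5* (0.88), *Gm15832* (0.88) and *Sfpq* (0.88), among 12008 genes with a mean of at least 1 CPM. With 7 livers at 0, this likeness rests mainly on the few livers with reads, and it is given as a description.

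Within 250 kb of the cluster, 21 genes that are not members were listed in both tables, of which 15 could be tested on chow and 16 otherwise. *Prim1*, a subunit of the DNA primase that starts replication, was the only 1 called by labelled genotype, with log2 fold changes of 1.13 (SE 0.16, adjusted p = 0.0145, limma) on chow and 1.24 (SE 0.23, adjusted p = 0.0328) on HFCF. It did not pass without chow WT replicate 3 or chow HuRHep-/- replicate 1 or 2 (adjusted p up to 0.0709), nor without HFCF WT replicate 1 or any HFCF HuRHep-/- liver (up to 0.133). Calls over all genes were 2.24% on chow and 3.62% on HFCF. Between diets *Sdr9c7*, a short-chain dehydrogenase just beyond *Rdh7*, fell by 0.90 (SE 0.26, adjusted p = 0.0259) in livers labelled WT and by 1.15 (SE 0.26, adjusted p = 0.00505) in livers labelled HuRHep-/- on the log2 scale. *Hsd17b6*, another such enzyme that acts on retinol and steroids, fell by 1.25 (SE 0.36, adjusted p = 0.0264) in livers labelled WT, where 9.38% of all genes were called. Without chow WT replicate 1 or 3, HFCF WT replicate 2 (*Hsd17b6*), or chow WT replicate 1, HFCF WT replicate 1 or 3 (*Sdr9c7*), these calls in livers labelled WT were lost, with adjusted p up to 0.105 and 0.101. In livers labelled HuRHep-/-, where 19.1% of all genes were called, *Hsd17b6* was at 186, 173 and 188 CPM on chow and at 143, 169 and 241 CPM on HFCF.

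The wider pathway was read from 54 further genes in 3 lists: enzymes, transport and binding, and retinoic acid breakdown, receptors and targets. On chow 1 of the 42 tested was called, *Bco1*, which cleaves beta-carotene to retinaldehyde. It was at 4.57, 4.11 and 4.05 CPM in livers labelled WT and at 7.39, 6.47 and 6.55 CPM in livers labelled HuRHep-/-, a log2 fold change of 0.68 (SE 0.12, adjusted p = 0.0243). The share of 2.38% was near the 2.24% of all genes. The count was 0 without chow WT replicate 1, chow WT replicate 3, or chow HuRHep-/- replicate 1 or 2, and 5 without chow HuRHep-/- replicate 3. The median log2 fold change of the 42 was -0.11, against 0.00468 for all genes.

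On HFCF 6 of 43 genes were called, 3 higher and 3 lower in livers labelled HuRHep-/-, or 14.0% beside the 3.62% of all genes. *Retsat*, which saturates retinol to dihydroretinol, fell from 457, 421 and 407 CPM in livers labelled WT to 256, 231 and 282 CPM, a log2 fold change of -0.76 (SE 0.09, adjusted p = 0.0140, limma). *Cyp26b1*, which breaks down retinoic acid, fell by 0.98 (SE 0.21, adjusted p = 0.0409), and *Rarres1*, named for its response to retinoids, fell by 1.54 (SE 0.18, adjusted p = 0.0140).

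*Tgm2*, a transglutaminase gene induced by retinoic acid, rose by 0.72 (SE 0.10, adjusted p = 0.0189) and *Rarg*, a retinoic acid receptor, by 0.60 (SE 0.13, adjusted p = 0.0444). All 5 of these genes had no overlap between the groups. *Cyp26b1* did not pass with all 12 livers in the fit (adjusted p = 0.294), nor *Rarg* without a filter on low counts (adjusted p = 0.0518), and over all alternatives their adjusted p ran from 0.0290 to 0.294 and from 0.0228 to 0.143. *Retsat* on chow had a log2 fold change of -0.51 (SE 0.10, adjusted p = 0.0333), a fold of 1.43.

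The HFCF count rested on few livers. It was 0 without HFCF WT replicate 1 or HFCF HuRHep-/- replicate 1, 1 without HFCF HuRHep-/- replicate 2 and 2 without HFCF HuRHep-/- replicate 3. The median log2 fold change of the 43 genes was -0.07, against -0.00155 for all genes. Markers of other cells also differed with the labelled genotype on HFCF. Of the 12 stellate cell markers 11 had higher estimates in livers labelled HuRHep-/-, 5 did not overlap and 1, *Cygb*, was called, at a log2 fold change of 0.88 (SE 0.20, adjusted p = 0.0498). *Cygb* was singled out after its values were seen. Their sums overlapped, at 296 to 473 CPM in WT livers and 440 to 492 CPM in livers labelled HuRHep-/-. Endothelial markers summed to between 175 and 207 CPM and between 209 and 222 CPM, without overlap and with 0 of 9 called. The 9 lymphocyte markers summed to between 4.89 and 6.84 and between 7.46 and 8.92 CPM, without overlap and with 0 called. Cholangiocyte markers summed to between 39.2 and 88.5 CPM in livers labelled WT and between 134 and 244 CPM in those labelled HuRHep-/-, also without overlap, with 2 of the 6 tested called. Macrophage markers summed to between 325 and 578 and between 552 and 781 CPM, with overlap and 0 of 13 called. None of these markers was at 0 in either group, and their part in the retinoid values was not tested.

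**Figure D5:**
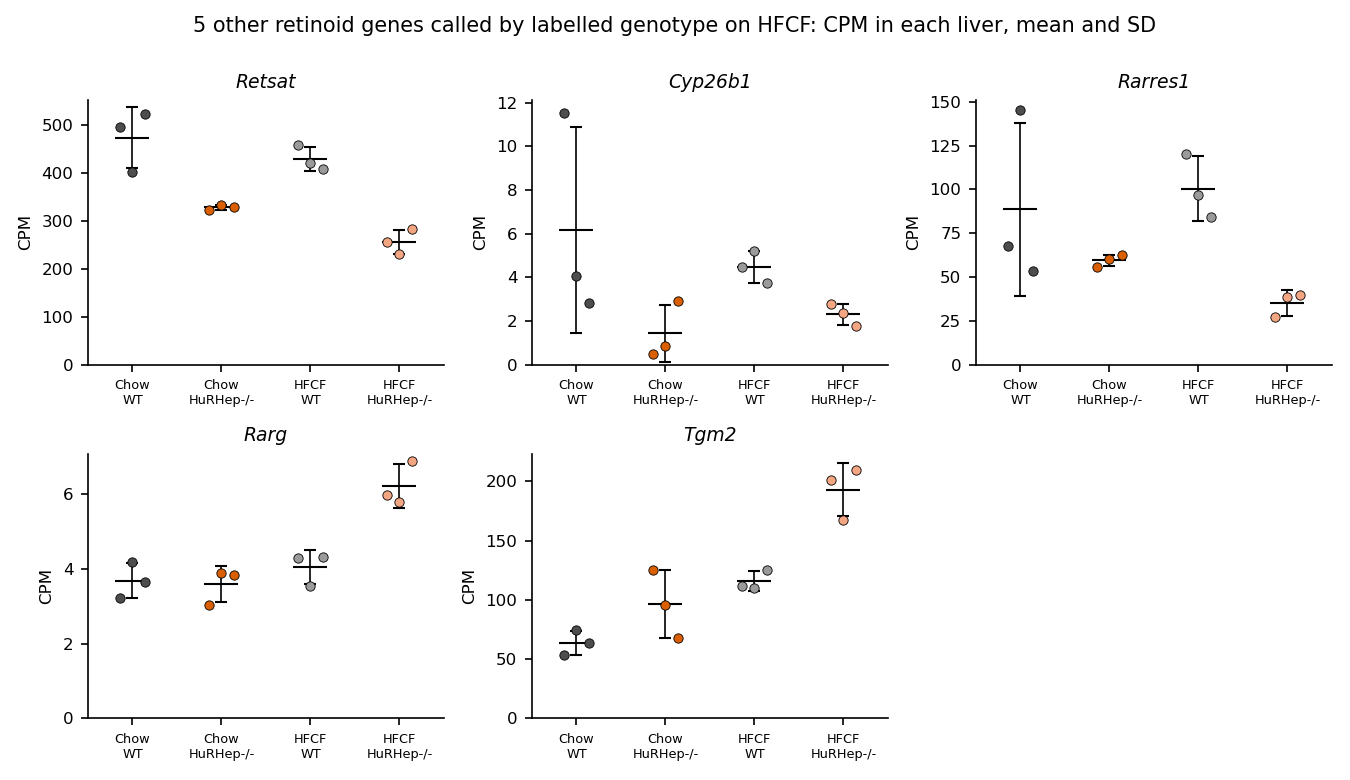
Level in CPM on the y axis of 5 genes of the retinoid lists called by labelled genotype on HFCF, in each of the 12 livers (points) with group mean and SD (bars). On HFCF the 3 livers labelled HuRHep-/- lie below the 3 labelled WT for Retsat, Cyp26b1 and Rarres1 and above them for Rarg and Tgm2.

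Between the diets, 9 of 44 genes were called in livers labelled WT, 5 higher and 4 lower on HFCF (20.5% beside 9.38% of all genes), and 7 of 44 in livers labelled HuRHep-/-, 5 higher and 2 lower (15.9% beside 19.1%). The count in livers labelled WT was 5 without chow WT replicate 1 or chow WT replicate 3. In livers labelled WT, the call was lost without replicate 1 or 3 of either diet for *Lrat* (adjusted p up to 0.0795), without replicate 1 of either diet for *Pnpla3* (up to 0.0643), without chow replicate 1 or 3 or HFCF replicate 1 for *Lipe* (up to 0.0828) and without replicate 2 or 3 of either diet for *Fabp5* (up to 0.0766). *Aldh1a2* lost its call in livers labelled HuRHep-/- without chow replicate 1 or 3 or HFCF replicate 1 or 2 (up to 0.0750). *Lrat*, which esterifies retinol for storage and is also a stellate cell marker, rose by 0.71 (SE 0.19, adjusted p = 0.0205) and 0.99 (SE 0.19, adjusted p = 0.00232). *Pnpla3*, a lipid droplet hydrolase that can release retinol from its ester, rose by 1.66 (SE 0.42, adjusted p = 0.0160) and 2.50 (SE 0.42, adjusted p = 0.00124). Its level was low, at means of 0.396 and 0.199 CPM on chow and 1.40 and 1.21 CPM on HFCF in livers labelled WT and HuRHep-/-. In the HFCF livers labelled WT it had 86, 33 and 29 counts. *Tgm2* rose by 0.87 (SE 0.19, adjusted p = 0.00733) and 1.04 (SE 0.19, adjusted p = 0.00173).

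*Rdh13*, a mitochondrial retinaldehyde reductase, fell by 0.63 (SE 0.13, adjusted p = 0.00625) and by 0.61 (SE 0.13, adjusted p = 0.00455) on the log2 scale in livers labelled WT and HuRHep-/-. *Fabp5*, which binds fatty acids and retinoic acid, fell by 1.07 (SE 0.29, adjusted p = 0.0202) and by 1.79 (SE 0.29, adjusted p = 0.000931). Its levels overlapped between the diets in livers labelled WT. In livers labelled WT *Adh7*, an alcohol dehydrogenase that oxidizes retinol, also fell, by 0.73 (SE 0.10, adjusted p = 0.000849), while *Rxrg* rose by 0.91 (SE 0.19, adjusted p = 0.00654) and *Lipe*, hormone-sensitive lipase, by 0.72 (SE 0.19, adjusted p = 0.0210). The levels of *Lipe* overlapped between these diet groups. In livers labelled HuRHep-/- *Rarg* rose by 0.79 (SE 0.15, adjusted p = 0.00193) and *Aldh1a2*, a retinaldehyde dehydrogenase like *Aldh1a1*, by 1.38 (SE 0.42, adjusted p = 0.0215), from a mean of 0.222 to 0.587 CPM. The medians of the lists were near 0, at 0.00112 and 0.0369, against 0.00951 and 0.00226 over all genes.

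Whether the genotype difference itself differed between diets was tested as an interaction in limma. None of the 44 genes passed, and over all 14535 genes 0 did (0%), with 2087 at an unadjusted p under 0.05. A difference between the diets in which genes were called is thus not shown.

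The most abundant genes of the lists were also read. *Ttr*, the plasma protein that binds retinol-binding protein, was at 9340, 6890 and 8783 CPM in chow livers labelled WT and at 6136, 6111 and 7174 CPM in those labelled HuRHep-/-, with an adjusted p of 0.236. On HFCF it was between 5552 and 5944 CPM in livers labelled WT and between 5464 and 5870 CPM in those labelled HuRHep-/-. *Adh1*, the main alcohol dehydrogenase of liver, had log2 fold changes of -0.16 (SE 0.13) on chow and -0.30 (SE 0.09) on HFCF, with adjusted p of 0.494 and 0.0896, and on chow it ran from -0.26 without HuRHep-/- replicate 3 to -0.063 without WT replicate 3. *Adh5*, which also oxidizes formaldehyde, had log2 fold changes of -0.08 (SE 0.07, adjusted p = 0.486, and -0.052 without HuRHep-/- replicate 1) on chow and -0.17 (SE 0.07, adjusted p = 0.142) on HFCF. *Scarb1* had a log2 fold change of 0.31 (SE 0.11, adjusted p = 0.136) on chow, *Rxra* of 0.25 (SE 0.07, adjusted p = 0.0873) and *Rarres2* of -0.21 (SE 0.06, adjusted p = 0.0921). None of these 6 genes passed on chow under any of the alternatives.

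*Rbp4* and *Ttr* are plasma proteins of the liver that fall in the acute phase, so acute phase genes were counted beside them. Of 17 acute phase genes, 7 were called on chow, 6 higher and 1 lower in livers labelled HuRHep-/-, and 2 on HFCF, 1 in each direction, beside 2.24% and 3.62% of all genes. Between diets 8 were called for the WT label, 3 higher and 5 lower on HFCF, and 12 for HuRHep-/-, 1 higher and 11 lower, beside 9.38% and 19.1% of all genes. Their part in the values of *Rbp4* was not tested.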

How the data were processed

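The authors sequenced total liver RNA from stranded libraries and counted reads per gene in CLC Genomics Workbench with RefSeq gene models of GRCm38.p6 per the labels, although the identifiers in the tables are those of Ensembl. They deposited 2 tables of read counts, not normalized and stored as text in which large values carry commas. The read length is not given in the sources used here. The call rule, with its minimum of 10 counts over each group, follows the study's criteria, which leave out genes of very low RPKM in either group. The comma was removed, and the values were tested in R 4.3.3 with limma 3.58.1 on log2 CPM (pseudocount 0.5, own trimmed-mean-of-M-values factors, variance trend), with Benjamini-Hochberg adjustment over all genes tested. Genotype was fitted within each table (6 livers), and diet and the interaction on 12 livers. Genes needed 10 counts in 3 libraries and 15 in all. The fit was tested on simulated data. Sequences were read in Python 3.11.15 with Biopython 1.88 from GENCODE M21 and RefSeq.

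The members and lists were chosen with earlier results of these data known. Named genes were *Elavl1*, the members, called genes of the retinoid lists (at most 8 per comparison), the 2 most abundant genes per list, the 5 genes most like *Rdh16f1* and called neighbours within 250 kb; *Prim1*, *Sdr9c7* and *Hsd17b6* came from the last. Replicate numbers were tried as a block, although the titles do not say that livers were paired. Same-numbered HFCF livers of the labelled genotypes deviated together weakly (r = 0.20, 0.30 and 0.17), and same-numbered livers elsewhere reached r = 0.26. Within groups, no pair of libraries agreed within sampling noise (chi-square per degree of freedom at least 18.3). Alternatives were scaling, filter, pseudocount, voom, a replicate block, no fold limit, all 12 livers in a genotype fit, leaving out each liver, and, chosen after seeing the data, *Rdh9* with the counts of *Rdh16f1* and *Rdh1* added. The values of 1 called gene are not reported here.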

Additional observations from a re-analysis of the deposited data

Results flagged for a closer look

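*Rdh16f2* is singled out because the estimates for its labelled genotypes had opposite signs on the 2 diets, although the HFCF one did not pass the test (adjusted p = 0.155, limma). All 3 chow livers labelled HuRHep-/- lay below all 3 labelled WT (log2 fold change -0.47), and all 3 HFCF livers labelled HuRHep-/- lay above all 3 labelled WT (0.46), so the estimates differ by 0.92. Without HFCF WT replicate 1 the HFCF estimate was 0.24, and leaving out the other HFCF livers in turn gave up to 0.62. The difference between the diets was not tested for this gene, since its chow livers served to choose the members. Groups of 3 livers are too small for the test of single samples that stand apart.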

How the results depend on the processing

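No member was called on HFCF under any setting with the fold limit, and 1 was without it. Of 1031 alternative values of single genes, 951 kept direction and side of the threshold or, where untested, moved by less than the residual spread; 75 no longer passed and 5 reversed. Those 5 were small log2 fold changes on HFCF: *Rdh16* at -0.041 without WT replicate 2, *Rdh11* at 0.034 without WT replicate 1 and 0.096 without HuRHep-/- replicate 3 (-0.28 without WT replicate 3), and *Dhrs3* at 0.0050 under upper-quartile scaling and 0.058 without WT replicate 2.

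Retinoid list calls on chow (1) became 2 under RLE scaling, 2 with no filter, 4 with all 12 livers in the fit and 3 without the fold limit, and 0 to 5 on leaving out a liver. On HFCF (6) they ran from 0 to 7 on leaving out a liver. Between diets they became 17 without the fold limit for the WT label (9) and 5 to 11 on leaving out a liver, and for HuRHep-/- (7) they became 20 without the fold limit and 4 with 10 counts in every library, with 5 to 9 on leaving out a liver. The interaction gave 0 to 1. All genes called on HFCF (517) became 971 without the fold limit and 28 to 850 on leaving out a liver (39 without WT replicate 1, 850 without WT replicate 3, and 28, 32 and 98 without HuRHep-/- replicate 1, 2 and 3). Fewer livers leave fewer degrees of freedom; the cause of the other changes was not tested.

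With the replicate number as a block, calls on HFCF were 764 over all genes, 6 on the retinoid lists and 0 among the members. Same-numbered livers had r = -0.05, 0.24 and 0.02 on chow and r from -0.10 to 0.26 between diets, so single values near those of the HFCF livers also arose there. The block gave 1 retinoid call on chow, 9 between diets for the WT label and 8 for HuRHep-/-. Beside *Aldh1a1*, the block changed no HFCF call among the named genes read under it, and *Cygb* was not among those. *Elavl1* kept its direction on leaving out any liver, with adjusted p up to 0.105 on chow and 0.121 on HFCF.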

Other observations

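The members' likeness to other genes over the 12 livers was read for each member, and 2 are given here, chosen after their values were seen. The pattern of *Rdh11* was most like that of *Pmvk* (Pearson r = 0.98), *Shoc2* (0.97), *Nsdhl* (0.96), *Cyp51* (0.96) and *Ddx21* (0.95), of which *Pmvk*, *Nsdhl* and *Cyp51* encode enzymes of cholesterol synthesis. The pattern of *Rdh16f2* was most like that of *Eif3g* (0.98), *Npm1* (0.98), *Rack1* (0.97), *Rps4x* (0.97) and *Rps3* (0.97), of which *Rack1*, *Rps4x* and *Rps3* encode ribosomal proteins and *Eif3g* a translation initiation factor. Each r is over 12 livers in 4 groups and 12007 genes compared, and is a description with no test.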
